A study of Homo sapiens with 18 samples.

Results

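The messenger RNA of YSCCC cells carrying a hairpin against RNF213 was compared with that of YSCCC cells carrying a control hairpin. The comparison used 6 of the 18 libraries of the series: 3 labelled shControl and 3 labelled shRNF213#2, with replicate numbers 1, 2 and 3 in each arm; the other 12 libraries came from the cholangiocarcinoma lines HuCCT1 and KKU-100. YSCCC is a human cholangiocarcinoma line that the labels place in the liver, grown in RPMI-1640 with 10% fetal bovine serum. Both arms were stable lines made with lentivirus, and the arms differ in genotype label only as WT against RNF213 knockdown. The knockdown rests on 1 hairpin, so an effect of this hairpin on transcripts other than RNF213 cannot be told apart from an effect of lower RNF213. The design text calls the replicates biological, and nothing says whether they were separate transductions or passages of the same stable pools.

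Cholangiocarcinoma arises from cells lining the bile ducts, often grows within dense collagen-rich stroma, and spreads locally along ducts and nerves. RNF213, also called mysterin, is a very large cytosolic protein that joins an ATPase core to a ubiquitin ligase; it is best known as a susceptibility gene of moyamoya disease, a narrowing of arteries at the base of the brain, and has been tied to lipid droplets, to the coating of intracellular bacteria with ubiquitin and to interferon. A short hairpin RNA is processed into a small RNA that guides the degradation of matching transcripts, so it lowers a transcript without removing the gene.

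The YSCCC libraries held 23778859 to 24987304 counts each, and mitochondrial transcripts took 1.77% to 2.02% of them. Levels are given as CPM, counts scaled to an equal library size with TMM factors, and values for replicates 1, 2 and 3 follow in that order, with the control arm first. The cells carried most transcripts of a bile duct epithelium: KRT19 ranged from 425 to 1215 CPM over the 6 libraries, KRT7 from 656 to 940.1, EPCAM from 193 to 355, SOX9 from 52.7 to 87.5 and CDH1 from 803 to 1553. Among the markers of this kind, CFTR stayed at or below 1.02 CPM. Of 12 hepatocyte markers ALB stayed at or below 0.0407 CPM, whereas CPS1 stood at 4.10 to 8.80, CYP2E1 at 1.10 to 1.99 and HNF4A at 0.163 to 1.99 CPM. Blood cell genes were mostly near 0 (CD3D 0 in each library, PTPRC at or below 2.12 CPM). Some genes best known from stroma, vessels or macrophages were present, with LUM at 32.1 to 252, CDH5 at 15.1 to 100.2 and CSF1R at 5.01 to 21.2 CPM. CD68 was the highest of the immune markers at 55.2 to 76.3 CPM, with CD14 at 1.63 to 5.92 and LYZ at 1.35 to 3.01 CPM. Of the other vessel and stroma markers, KDR, VWF, PDGFRB and COL1A2 stayed below 1 CPM in each library, while COL1A1 (4.44 to 15.9), COL3A1 (4.27 to 11.6), THY1 (1.22 to 8.21), DCN (2.40 to 3.53), FAP (1.38 to 3.98) and PECAM1 (1.06 to 4.02 CPM) were above it in each. With the hairpin, 3.69% of all tested genes were called higher and 4.56% lower (adjusted p below 0.05 in edgeR's paired fit). Of 10 tested stromal and endothelial markers, COL1A1, COL3A1 and THY1 fell and PECAM1 and CDH5 rose; of 9 immune markers ITGAM and CSF1R fell. Of 7 markers of RNA quality and dissociation, FOS and NEAT1 rose. COL3A1, CSF1R and FOS kept these calls without each single pair, and the other 6 did not. The part of these markers in the results below was not tested.

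The third replicate of each arm stood apart from the other two. In a principal component analysis, component 1 held 75.31% of the variance between the 6 libraries and separated replicate 3 of both arms from replicates 1 and 2, while the hairpin separated along component 2, with 14.42% (plot of the 6 libraries). Replicate number accounted for 80.87% of the variance between libraries and the hairpin for 12.72%. Replicate 3 was lower in genes of mitosis in both arms, whose 58 tested members summed to 5532, 4948 and 1685 CPM in the control arm and 6115, 6066 and 1589.8 CPM with the hairpin. It was higher in the targets of ATF4, the transcription factor of the amino acid response. The 35 genes of that list summed to 4044, 3707 and 8899 CPM in the control arm and 4325, 3961 and 9337 CPM with the hairpin. The hairpin was tested within pairs of equal number, as set for the comparison. Libraries of the same number deviated together from their arm means (Pearson r across genes 0.82, 0.73 and 0.91 for replicates 1, 2 and 3). Replicates 1 and 2 of opposite arms did so too (0.52 and 0.66), so these values do not show which of them belong together.

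**Figure D1:**
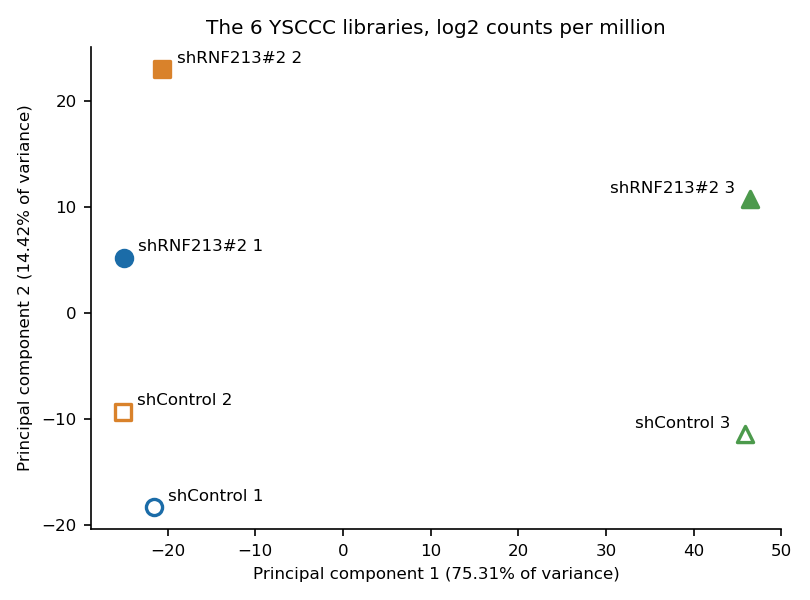
First 2 principal components of log2 CPM in the 6 YSCCC libraries. Open symbols are shControl and filled symbols shRNF213#2, with circles, squares and triangles for replicates 1, 2 and 3; both triangles lie at the right of component 1, and each filled symbol lies above the open symbol of its number on component 2.

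RNF213 itself (ENSG00000173821, chromosome 17, 80260866 to 80398786, plus strand, GRCh38) had 452, 403 and 573 CPM in the control arm and 159.6, 251 and 232 CPM with the hairpin. Every hairpin library lay below every control library. The hairpin left 35.3%, 62.2% and 40.5% of the paired control level in pairs 1, 2 and 3, so pair 2 kept the most RNF213. The fitted fold change was 2.24-fold lower (log2 fold change -1.16, SE 0.13, adjusted p = 0.000307 by edgeR's quasi-likelihood test with the replicate block). As a single value, 3 libraries against 3 gave an exact two-sided permutation p of 0.1, the smallest that this number allows. The antisense gene RNF213-AS1 overlaps RNF213 and had 42 to 115 counts; whether counting used strand is unknown here, so its reads and those of RNF213 cannot be told apart.

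Of 16932 genes tested in pairs, 1397 passed an adjusted p of 0.05 (8.25%), 625 of them higher (3.69%) and 772 lower (4.56%) with the hairpin. Most changes were moderate. The median fold change was 1.53 among genes that rose and 1.52 among genes that fell; 119 rose and 170 fell at least 2-fold, and 7 rose and 10 fell at least 4-fold. Of the 1397, 1387 moved in the same direction in all 3 pairs, against 44.36% of all tested genes. The paired test itself favours genes whose pairs agree. Pair 2, which kept the most RNF213, had the largest changes. Its log2 ratios had an SD of 0.35 over genes averaging at least 8 CPM, against 0.29 and 0.30 in pairs 1 and 3. Called genes averaging 5 CPM or more had a median absolute log2 ratio of 0.62 in pair 2, against 0.51 and 0.48. Whether the changes scale with the RNF213 level was not tested. In 587 of the 1397 the arms did not overlap, against 10.6% of all tested genes without overlap (5.43% higher and 5.17% lower). Most of these calls need the pairs: without the replicate block, edgeR's quasi-likelihood test called 0 genes (802 at an unadjusted p below 0.05), limma-voom called 0 (779) and DESeq2 called 97, all of them among the 1397. They also lean on single pairs, since 313, 530 and 1856 genes were called without pair 1, 2 and 3, and 231 of the 1397 kept their call in each of these fits. With all 18 libraries 782 genes were called, and none of the gene lists counted in the sentences below had more calls in either direction than in the paired fit of the 6 libraries. A call named below held without each single pair and in the paired fits with DESeq2, limma-voom, other scalings, a floor of 5 CPM (where the gene was tested there) and all 18 libraries, unless the text names a loss. Adjusted p-values are from edgeR's paired fit unless another fit is named.

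**Figure D2:**
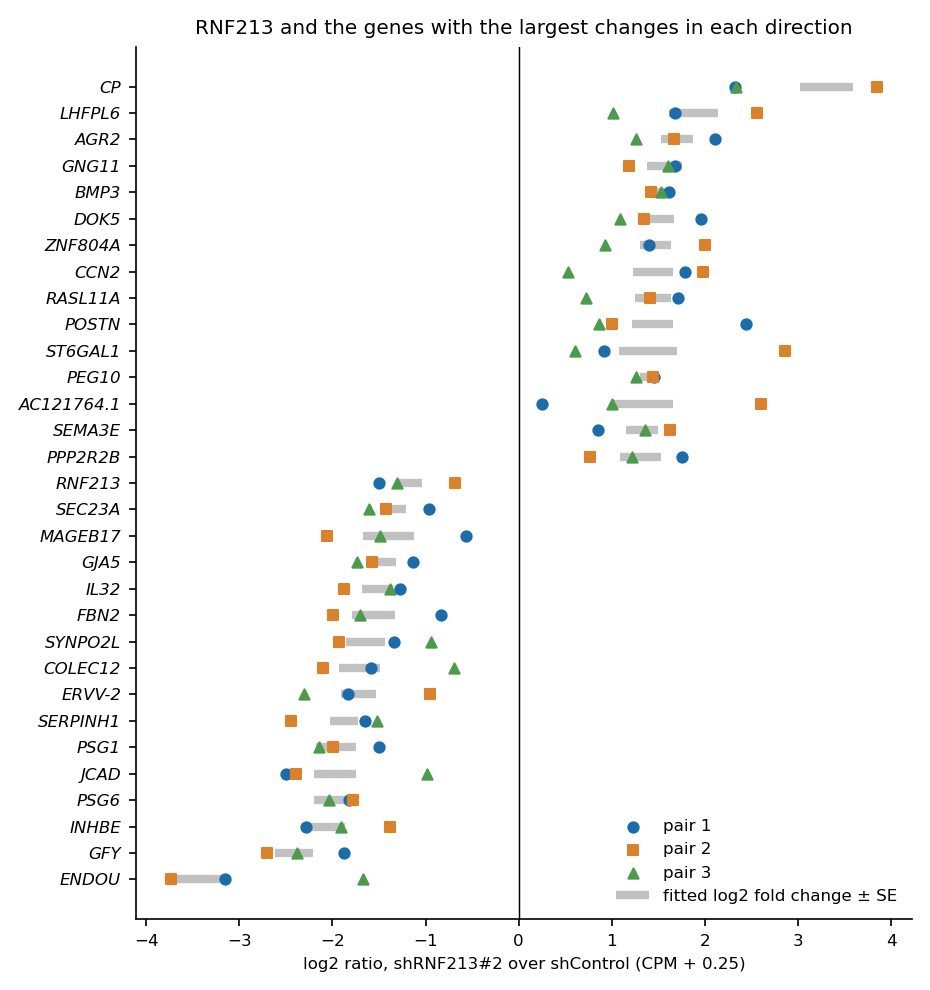
Log2 ratios of shRNF213#2 over shControl in each pair for RNF213 and for the 15 genes per direction that changed most, out of the called genes averaging 5 CPM or more. Symbols are the 3 pairs and grey bars the fitted log2 fold change ± SE. Each gene moved in 1 direction in all 3 pairs, which was required of the genes other than RNF213. The lowest fitted value was -3.46 (ENDOU) and the highest 3.31 (CP).

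Part of the genes that build collagen and the fibrous matrix fell. SERPINH1, which encodes HSP47, the chaperone that binds procollagen in the endoplasmic reticulum, had 234, 236 and 189 CPM in the control arm and 74.3, 42.95 and 65.5 CPM with the hairpin. The arms did not overlap and the fall was 3.67-fold (log2 fold change -1.87, SE 0.15, adjusted p = 4.08e-05; chromosome 11, 75562056 to 75572783, plus strand). Of 29 tested genes of collagen biosynthesis 10 were called, each lower (34.5%, against 8.25% of all genes; median log2 fold change -0.30 against 0.0055), and 22 of the 29 had a negative value. P3H4, a scaffold of collagen lysyl hydroxylation, went from 112, 118 and 102 to 77.3, 56.4 and 46.1 CPM (log2 fold change -0.91, SE 0.12, adjusted p = 0.000844). FKBP10, a collagen prolyl isomerase, went from 31.03, 31.2 and 86.9 to 22.97, 20.3 and 53.4 CPM (log2 fold change -0.59, SE 0.11, adjusted p = 0.00528); replicate 3 of FKBP10 was high in both arms, so its arms overlapped. P4HB, the shared subunit of prolyl hydroxylase and of protein disulfide isomerase, was among the most abundant members at 1092, 1157 and 1136 against 923, 860.2 and 899.6 CPM (-0.34, adjusted p = 0.0251), and lost its call without pair 1 (0.105), without pair 2 (0.145) or with all 18 libraries (0.102). The members called lower numbered 3, 3 and 8 without pairs 1, 2 and 3.

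Among matrix glycoproteins and proteoglycans, 9 of 39 fell and 4 rose (33.3% called). FN1, which encodes fibronectin, the fibrillar adhesion protein of plasma and matrix, had 606, 533 and 450.1 CPM in the control arm and 252, 241 and 165 CPM with the hairpin. Every hairpin library lay below every control library (log2 fold change -1.29, SE 0.09, adjusted p = 2.64e-05). SPARC, a collagen-binding matricellular protein, fell from 297, 229.9 and 78.6 to 184, 84.2 and 23.98 CPM (log2 fold change -1.27, SE 0.15, adjusted p = 0.000509); it was much lower in replicate 3 of both arms, and the arms overlapped. ECM1 fell from 93.4, 83.2 and 57.1 to 54.4, 33.8 and 24.3 CPM and FBN2, a fibrillin of elastic microfibrils, from 7.21, 5.61 and 12.9 to 3.94, 1.22 and 3.78 CPM, both with arms apart (log2 fold changes -1.10 and -1.56). The stromal markers COL1A1, COL3A1 and THY1 fell too, as given above. POSTN, which encodes periostin, a matricellular protein of remodelling stroma, went the other way, from 79.8, 159 and 34.2 to 433, 319 and 62.5 CPM (log2 fold change 1.44, SE 0.22, adjusted p = 0.0022), with pair 1 the largest and replicate 3 low in both arms. Without pairs 1, 2 and 3 the list had 4, 5 and 14 genes lower and 1, 2 and 7 higher. Collagen genes themselves split, with 5 of 27 lower and 2 higher (25.9%), and 1, 2 and 4 lower and 0, 0 and 2 higher without pairs 1, 2 and 3. COL3A1 fell from 8.04, 11.6 and 11.3 to 4.27, 5.01 and 4.32 CPM (-1.17, adjusted p = 0.00127; 0.0618 with all 18 libraries).

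Some receptors that hold cells to this matrix also fell. Integrins are paired chains that bind fibronectin, collagens and laminins; 6 of 17 tested chains were called, each lower (35.3%), and 3, 5 and 5 were lower without pairs 1, 2 and 3. ITGA2, the collagen-binding alpha chain, had 708, 409.9 and 698 CPM in the control arm and 401, 212 and 228 CPM with the hairpin. Control library 2 was the lowest control, and hairpin library 1 came just below it, so the arms did not overlap (log2 fold change -1.13, SE 0.13, adjusted p = 0.000357). ITGA5, the fibronectin receptor chain, fell from 339.8, 260.0 and 254 to 213, 137 and 193 CPM (-0.67, adjusted p = 0.00228) and ITGA6, a laminin receptor chain, from 289.5, 282 and 139.9 to 207, 163 and 104 CPM (-0.57, adjusted p = 0.00375). Of laminin and hemidesmosome genes 4 of 18 fell and 2 rose (33.3%); 1, 3 and 5 fell and 1, 1 and 2 rose without pairs 1, 2 and 3. LAMA4, a chain of vascular and mesenchymal laminins, rose from 3.48, 5.12 and 4.33 to 10.2, 11.4 and 8.41 CPM (log2 fold change 1.22, SE 0.17, adjusted p = 0.00131). The hyaluronan receptor CD44 fell from 488, 499 and 162 to 354, 261 and 102 CPM (-0.69, adjusted p = 0.00147).

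Cell-cell contact genes were lower in part. All 5 called genes among 24 of desmosomes and adherens junctions fell (20.8%), and 2, 4 and 7 fell without pairs 1, 2 and 3. JCAD, a junction protein linked to coronary artery disease, had 142, 80.1 and 47.6 CPM in the control arm and 24.9, 15.1 and 23.98 CPM with the hairpin. It fell 3.94-fold, by less in pair 3 than in the other pairs, and the arms did not overlap (log2 fold change -1.98, SE 0.23, adjusted p = 0.000353). DSG2, a desmosomal cadherin, fell from 794, 678 and 428 to 487, 377 and 302 CPM (-0.68, adjusted p = 0.000922). HEG1, a membrane mucin-like protein of vessels, fell from 482, 298 and 252 to 229, 147 and 123 CPM with arms apart (log2 fold change -1.04, SE 0.09, adjusted p = 5.01e-05). CDH1, which encodes E-cadherin, was at 1553, 1423 and 963 against 961, 803 and 842 CPM (-0.57, adjusted p = 0.00749), but lost its call without pair 1 (0.104), without pair 2 (0.0796) or with all 18 libraries (0.194). Tight junction genes moved both ways: TJP1 fell from 630.1, 534 and 536 to 391, 363 and 386 CPM (-0.57, adjusted p = 0.00175) and its relative TJP3 rose from 83.7, 86.1 and 59.9 to 129, 155 and 97.4 CPM (0.73, adjusted p = 0.000789).

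Extracellular proteases and their inhibitors changed in both directions. Of 41 matrix proteases 6 fell and 2 rose (19.5%), and of 30 inhibitors 6 fell and 3 rose. Over all tested genes, 4.56% were called lower and 3.69% higher. Without pairs 1, 2 and 3, 4, 3 and 7 proteases fell and 1, 2 and 2 rose, and 5, 5 and 8 inhibitors fell and 2, 3 and 3 rose. TFPI2, a Kunitz inhibitor of plasmin and trypsin that is laid into the matrix, had 222, 235 and 288 CPM in the control arm and 549, 658 and 478 CPM with the hairpin. Every hairpin library exceeded every control (log2 fold change 1.17, SE 0.12, adjusted p = 0.000217). ADAM9, a membrane sheddase, rose from 359.8, 282 and 276 to 619, 553 and 410.4 CPM (log2 fold change 0.78, SE 0.10, adjusted p = 0.00056). KLK5, a secreted serine protease of stratified epithelia, fell from 580.1, 424 and 287 to 367, 217 and 157 CPM (-0.83, adjusted p = 0.000284), together with the serpins SERPINA5, SERPINB5 and SERPINB7 (log2 fold changes -0.77, -0.99 and -1.07). SERPINA1, the plasma elastase inhibitor, rose from 2.69, 5.00 and 7.79 to 5.09, 11.2 and 14.5 CPM (0.99, adjusted p = 0.00277).

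**Figure D3:**
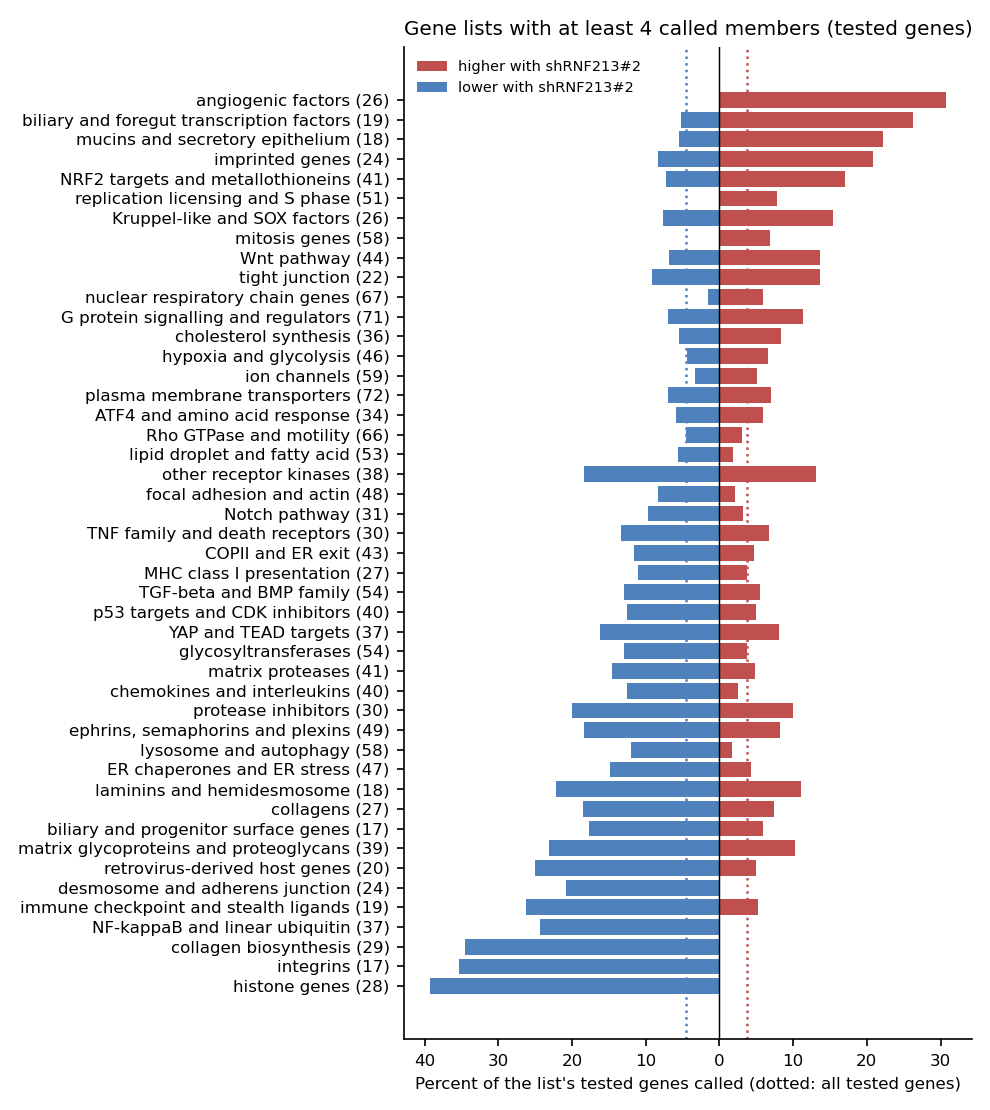
Percent of tested genes called higher (right) or lower (left) in each gene list with at least 4 called members, with the number of tested genes in brackets; dotted lines mark 3.69% higher and 4.56% lower over all tested genes. Histone, integrin and collagen biosynthesis genes lie at the lower end, and angiogenic factors at the upper end.

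Parts of the route from the endoplasmic reticulum (ER) to the Golgi fell with the matrix genes. New secreted proteins fold in the ER with the help of chaperones, leave in COPII vesicles, and escaped chaperones are returned by KDEL receptors. SEC23A, a COPII coat subunit needed for procollagen export, had 70.5, 63.8 and 74.1 CPM in the control arm and 36.02, 23.6 and 24.2 CPM with the hairpin. Each hairpin library lay well below each control library (log2 fold change -1.336, SE 0.13, adjusted p = 0.000111). KDELR3, a KDEL receptor, had 36.4, 26.3 and 104 against 22.8, 14.01 and 52.3 CPM; replicate 3 was the highest of each arm, so the arms overlapped, while each pair fell (log2 fold change -0.86, SE 0.11, adjusted p = 0.000714). Of 43 tested COPII and ER exit genes 5 fell and 2 rose (16.3%), and 36 had a negative value (median -0.16). Without pairs 1, 2 and 3, 2, 3 and 4 fell and 0, 0 and 2 rose.

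ER chaperone and ER stress genes had 7 of 47 lower and 2 higher (19.1%), with 37 negative values and a median of -0.13; 4, 5 and 6 were lower without pairs 1, 2 and 3. HERPUD1, a membrane protein of ER-associated degradation, had 126, 108 and 544 CPM in the control arm and 98.1, 75.6 and 329 CPM with the hairpin. Replicate 3 was several times higher than the others in both arms, and the hairpin library was the lower in each pair (log2 fold change -0.54, SE 0.10, adjusted p = 0.0049). SEL1L, the partner of an ER degradation ligase, fell from 267, 264 and 529 to 189, 165 and 396 CPM (-0.53, adjusted p = 0.00345). DNAJC3, an ER co-chaperone, fell from 68.1, 62.1 and 103 to 45.5, 44.4 and 60.5 CPM (-0.61, adjusted p = 0.00302). The main chaperone HSPA5, or BiP, had 909, 914 and 3478 against 835, 842 and 2362 CPM, and its log2 fold change of -0.27 (SE 0.10, adjusted p = 0.117) did not pass. AGR2, a disulfide isomerase of mucus-producing cells, rose from 3.22, 6.99 and 6.57 to 14.6, 22.8 and 16.1 CPM with arms apart (log2 fold change 1.70, SE 0.17, adjusted p = 0.000177). SEC61B, a subunit of the ER protein channel, rose from 45.5, 46.5 and 62.7 to 82.5, 71.7 and 97.95 CPM (0.71, adjusted p = 0.00116).

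Promoters of SERPINH1, HERPUD1, KDELR3 and TNFAIP3 were picked to be shown. Those of SERPINH1 (heat shock element) and TNFAIP3 (kappaB site) are left out, because a match there did not end before the first annotated exon. HERPUD1 and KDELR3 were both high in replicate 3 and fell with the hairpin. Capitals mark the ER stress response element II (ATTGG, 1 base of any kind, CCACG) in HERPUD1 and the unfolded protein response element (TGACGTG, here on the opposite strand) in KDELR3; both stretches begin 250 bases before the RefSeq start (GRCh38.p14, plus strand) and end before the first exon that GENCODE 29 annotates there, at chr16:56931892-56932047 and chr22:38467846-38468061.
HERPUD1: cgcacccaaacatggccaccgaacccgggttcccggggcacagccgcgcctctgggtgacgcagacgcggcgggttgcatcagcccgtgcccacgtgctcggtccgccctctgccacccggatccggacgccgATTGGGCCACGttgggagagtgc
KDELR3: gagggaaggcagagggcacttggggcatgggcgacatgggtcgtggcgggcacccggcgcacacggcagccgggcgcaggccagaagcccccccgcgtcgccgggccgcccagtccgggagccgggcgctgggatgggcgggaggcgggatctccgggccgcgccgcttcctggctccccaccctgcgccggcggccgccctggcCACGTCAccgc
Neither match overlapped a match of the other motifs searched, which were looked for on both strands. Element II stood in 3 of 44 ER chaperone promoters (0.051% of 27305 promoters), the first ER stress response element (CCAAT, 9 bases of any kind, CCACG) in 7 of 44 (0.081%), and TGACGTG in 6 of 39 COPII and ER exit promoters and 2 of 44 ER chaperone promoters (1.71%), each over the whole 250 bases. Of the 10 ER genes with either ER stress element, 8 had a negative log2 fold change (median -0.12), and HERPUD1 was the only member that passed. Of the 6 COPII and ER exit genes with TGACGTG only KDELR3 passed, and of the 2 ER chaperone genes with it, DNAJC10 and HYOU1, neither did.

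Transcripts of the NF-kappaB pathway, through which TNF and interleukin-1 switch on inflammatory genes, were lower in part. Of 37 tested genes 9 were called, each lower (24.3%; median -0.10); 3, 5 and 7 were lower without pairs 1, 2 and 3. TNFAIP3, which encodes the feedback inhibitor A20, had 27.8, 52.98 and 59.3 CPM in the control arm and 16.4, 27.8 and 29.6 CPM with the hairpin. The hairpin library was lower by about the same factor in each pair, with overlap between the arms (log2 fold change -0.90, SE 0.11, adjusted p = 0.000521). CYLD, a deubiquitinase that also restrains the pathway, fell from 122, 106 and 135 to 80.2, 60.2 and 78.8 CPM with arms apart (-0.73, adjusted p = 0.000767). The cytokine IL32 fell from 13.5, 6.95 and 31.6 to 5.46, 1.71 and 12.03 CPM (log2 fold change -1.52, SE 0.16, adjusted p = 0.000267). NFKBIA, the inhibitor that the pathway induces most directly, stood at 103, 194 and 59.3 against 122, 147 and 65.3 CPM and did not pass (adjusted p = 0.992).

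Genes read by immune cells were lower in part. Of 19 immune checkpoint and complement-shield genes 5 fell and 1 rose (31.6%); 1, 3 and 6 fell and 0, 0 and 1 rose without pairs 1, 2 and 3. CD59, which blocks the complement pore, fell from 562, 542 and 254 to 396, 368 and 155 CPM (log2 fold change -0.59, SE 0.09, adjusted p = 0.00158). CD274, which encodes PD-L1, was at 13.1, 11.01 and 14.5 against 5.58, 4.84 and 8.92 CPM with arms apart (-1.03, adjusted p = 0.00219; 0.057 without pair 1). The death receptor TNFRSF21 rose from 264, 297 and 265 to 387, 513 and 367 CPM (0.60, adjusted p = 0.00192). CSF1R, the receptor of macrophage colony-stimulating factor, fell from 21.2, 17.3 and 16.3 to 13.9, 5.01 and 7.94 CPM (log2 fold change -1.12, SE 0.19, adjusted p = 0.00358), in libraries where the leucocyte gene PTPRC stayed at or below 2.12 CPM. CD68, another macrophage gene, stood at 55.2 to 76.3 CPM in these libraries. Interferon-stimulated genes, among which RNF213 itself is usually counted though it is not on this list, had 3 of 52 higher and 0 lower (5.8%). Of all genes, 3.69% were called higher and 8.25% in either direction. The median of the list was 0.13, and none of the 3 kept its call without pair 1.

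Some secreted genes on a list of angiogenic factors rose. The list was not split into factors that promote and factors that restrain vessel growth, so an effect on vessel growth was not tested. The 8 called genes among 26 angiogenic factors were all higher (30.8%), and 3, 7 and 9 were higher without pairs 1, 2 and 3; PDGFC and THBS1 averaged above 50 CPM, the others below 25 CPM. HGF, the ligand of the MET receptor, had 1.48, 1.58 and 2.91 CPM in the control arm and 6.81, 8.14 and 6.15 CPM with the hairpin. The lowest hairpin library was above the highest control (log2 fold change 1.84, SE 0.25, adjusted p = 0.000995). PDGFC, a platelet-derived growth factor, rose from 41.2, 41.00 and 40.4 to 61.2, 71.8 and 62.8 CPM (log2 fold change 0.67, SE 0.10, adjusted p = 0.00178). SEMA3E, a guidance ligand that repels endothelial cells, rose from 4.43, 4.31 and 7.59 to 8.20, 13.8 and 19.8 CPM (1.33, adjusted p = 0.000767). ANGPTL4, an inhibitor of lipoprotein lipase, was at 1.61, 1.138 and 0.787 against 7.34, 3.34 and 2.02 CPM with arms apart (1.75, adjusted p = 0.00127; 0.0539 without pair 1). IGFBP7 fell from 112, 71.9 and 52.1 to 74.2, 29.96 and 27.3 CPM (-0.93, adjusted p = 0.000896). EGFR, at 4995, 4476 and 3481 against 3599, 3998 and 2915 CPM, was the most abundant gene called (-0.30, adjusted p = 0.0464), and this call was lost without pair 1 (0.367), without pair 2 (0.0765), with total counts as scale (0.0537) or with all 18 libraries (0.234).

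Within the TGF-beta and BMP family 7 of 54 genes fell and 3 rose (18.5%); 5, 4 and 6 fell and 1, 1 and 3 rose without pairs 1, 2 and 3. BMP3, a bone morphogenetic protein that opposes its relatives, had 16.9, 22.1 and 8.89 CPM in the control arm and 52.5, 59.3 and 26.1 CPM with the hairpin. The log2 fold change was 1.53 (SE 0.11, adjusted p = 2.76e-05) and pairs were nearly equal. INHBE, an activin chain mostly known from liver, had 2.96, 1.46 and 78.6 against 0.410, 0.407 and 20.8 CPM, so that replicate 3 carried nearly all of its transcripts in both arms (log2 fold change -2.06, SE 0.19, adjusted p = 0.000111). The receptors TGFBR1 and TGFBR3 fell from 167, 148 and 76.5 to 113, 71.1 and 54.2 CPM and from 95.9, 81.5 and 20.8 to 53.6, 37.5 and 10.01 CPM (-0.71 and -1.002). CCN2, or connective tissue growth factor, a target of TGF-beta and of YAP, rose from 9.56, 20.5 and 22.9 to 33.7, 81.9 and 33.2 CPM with arms apart (log2 fold change 1.44, SE 0.22, adjusted p = 0.00175). NUAK2, another YAP target, fell from 46.02, 38.4 and 55.2 to 19.9, 16.2 and 19.04 CPM (log2 fold change -1.33, SE 0.12, adjusted p = 6.64e-05). Of 37 YAP and TEAD targets 6 fell and 3 rose (24.3%), and 2, 5 and 7 fell and 1, 2 and 3 rose without pairs 1, 2 and 3. In the Wnt pathway 6 of 44 rose and 3 fell (20.5%), and 2, 2 and 6 rose and 0, 3 and 4 fell without pairs 1, 2 and 3. The ligands WNT5A and WNT7B rose from 129, 180.0 and 126 to 179, 317 and 202 CPM and from 161, 137 and 41.1 to 236, 229 and 82.9 CPM (0.66 and 0.76).

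Epithelial secretory genes were higher in part. Of 18 mucin and secretory genes 4 rose and 1 fell (27.8%; median 0.38), and 3, 2 and 7 rose without pairs 1, 2 and 3. MUC3A, a membrane mucin with near-identical relatives that reads may not tell apart, rose from 12.1, 13.2 and 10.3 to 26.5, 32.1 and 15.5 CPM (log2 fold change 1.01, SE 0.15, adjusted p = 0.0015). KLF5, a factor of gut and biliary epithelium, rose from 76.7, 77.2 and 58.4 to 101, 124 and 91.6 CPM (0.58, adjusted p = 0.00375). The epithelial sodium channel subunit SCNN1A rose from 108, 119 and 206 to 169, 334 and 305 CPM (0.90, adjusted p = 0.00278). CP, which encodes the copper oxidase ceruloplasmin, had the largest rise among called genes averaging 5 CPM or more, from 0.391, 1.18 and 1.06 to 2.95, 20.3 and 6.38 CPM. Its pairs rose unequally, with hairpin library 2 far above the others (log2 fold change 3.31, SE 0.29, adjusted p = 6.64e-05). ENDOU, an endoribonuclease of squamous epithelium and placenta, had the largest fall among the same genes, from 15.8, 14.99 and 1.53 to 1.56, 0.896 and 0.311 CPM (log2 fold change -3.46, SE 0.27, adjusted p = 3.49e-05); replicate 3 was low in both arms, and the arms overlapped. The transcription factor KLF13 fell from 54.3, 48.4 and 52.6 to 25.02, 12.8 and 26.4 CPM with arms apart (-1.33, adjusted p = 0.000416).

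Placental genes of chromosome 19 fell together. The pregnancy-specific glycoproteins are secreted relatives of CEACAM genes that lie side by side and are nearly identical in sequence, so reads may be split between them. Each of the 6 tested members was called lower, beside 4.56% of all genes tested. Among them were PSG5 from 56.5, 35.6 and 21.6 to 24.1, 14.5 and 8.57 CPM (log2 fold change -1.29, SE 0.11, adjusted p = 7.83e-05), PSG6 from 19.8, 4.67 and 5.23 to 5.41, 1.18 and 1.09 CPM (-2.01) and PSG1 from 16.1, 6.75 and 3.78 to 5.54, 1.51 and 0.662 CPM (-1.96). PSG4 and PSG9 lost their calls without pair 1 (adjusted p = 0.128 and 0.324), and PSG9 also with all 18 libraries (0.0577). They were chosen for description after their values were seen. ERVV-2, an envelope gene of a captured retrovirus on the same chromosome, fell from 139.9, 44.9 and 128 to 39.1, 23.1 and 25.5 CPM with arms apart (log2 fold change -1.72, SE 0.19, adjusted p = 0.000282).

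Lipid, oxidative stress and lysosome genes gave a few strong members. Of 53 lipid droplet and fatty acid genes 1 rose and 3 fell (7.5%, beside 8.25% of all genes). Without pairs 1, 2 and 3, 1, 1 and 3 of them rose and 0, 5 and 6 fell. CD36, a scavenger receptor and fatty acid transporter, had 322, 439 and 67.9 CPM in the control arm and 611, 736 and 141 CPM with the hairpin. Each pair rose, with replicate 3 low in both arms (log2 fold change 0.90, SE 0.09, adjusted p = 0.000177). INSIG1, which holds back cholesterol synthesis, fell from 151, 49.4 and 67.3 to 72.7, 33.8 and 22.5 CPM (-1.06, adjusted p = 0.00134; 0.0632 with all 18 libraries). Of 41 NRF2 targets and metallothioneins 7 rose and 3 fell (24.4%), and 1, 4 and 11 rose and 1, 2 and 3 fell without pairs 1, 2 and 3. AKR1C2, an aldo-keto reductase with near-identical relatives, rose from 31.5, 61.96 and 54.7 to 58.4, 202 and 99.3 CPM (log2 fold change 1.16, SE 0.15, adjusted p = 0.000682). GPX3, a secreted glutathione peroxidase, fell from 38.6, 41.8 and 33.5 to 26.7, 18.1 and 17.4 CPM (-0.89, adjusted p = 0.00182). Among 58 lysosome and autophagy genes 7 fell and 1 rose (13.8%); 3, 3 and 10 fell without pairs 1, 2 and 3, and 2 with all 18 libraries. Those that fell included SMPD1, the acid sphingomyelinase, from 101, 121 and 75.2 to 75.9, 72.2 and 49.9 CPM (-0.58) and MITF, a factor that drives lysosomal genes in some cells, from 19.8, 19.4 and 19.3 to 14.1, 10.7 and 8.06 CPM (-0.86).

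Of 51 replication genes 4 rose and 0 fell (7.8%), and of 58 mitosis genes 4 rose and 0 fell (6.9%). Of all genes, 3.69% were called higher and 8.25% in either direction. Positive values were found for 42 of the replication and 46 of the mitosis genes. Without pairs 1, 2 and 3, 1, 1 and 5 replication genes and 0, 0 and 12 mitosis genes rose. MCM7, a subunit of the replicative helicase, was the replication gene with the smallest adjusted p, from 68.1, 71.4 and 36.6 to 143, 147 and 63.5 CPM (log2 fold change 0.97, SE 0.10, adjusted p = 0.000177). Of 67 nuclear respiratory chain genes 4 rose and SDHD fell (7.5%, beside 8.25% of all genes; median 0.10), with 1, 3 and 6 higher without pairs 1, 2 and 3. SDHD lost its call without pair 2. COX4I1, a subunit of cytochrome c oxidase, rose from 166, 175 and 172 to 342, 334 and 261 CPM with arms apart (log2 fold change 0.86, SE 0.10, adjusted p = 0.000416). MT-ND4, the most abundant of 13 mitochondrially encoded genes, was at 3654, 3434 and 3319 against 3679.9, 3660.3 and 3125 CPM (0.01, adjusted p = 0.981). Histone genes were lower in part: 11 of 28 tested were called, each lower (39.3%), 27 had a negative value, and the median was -0.62. HIST2H2BE, a histone 2B gene that also makes polyadenylated messages, had 36.3, 36.9 and 24.4 against 18.2, 15.3 and 14.8 CPM, with arms apart (SE of the log2 fold change 0.13, adjusted p = 0.000789). Most other members are replication-dependent histones, whose messages end in a stem-loop without a poly(A) tail and so enter such libraries only in part. The whole list summed to 482, 456 and 271 CPM in the control arm and 344, 238 and 225 CPM with the hairpin, and 1, 2 and 17 members were lower without pairs 1, 2 and 3.

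Genes around PEG10 on chromosome 7 rose side by side. PEG10, a retrotransposon-derived gene expressed from the paternal copy, had 142, 186 and 121 CPM in the control arm and 388, 508 and 292 CPM with the hairpin. Pairs rose by nearly equal factors and the arms stood apart (log2 fold change 1.39, SE 0.09, adjusted p = 1.52e-05; chromosome 7, 94656325 to 94669695, plus strand, GRCh38). Over all tested genes, 3.69% were called higher and 44.36% moved in 1 direction in all 3 pairs. Between VPS50 and PPP1R9A, which lie on either side and had log2 fold changes of 0.01 and 0.21 without a call, 9 genes were tested over 1.23 Mb. All 9 were higher in each of the 3 pairs and 6 were called, each higher (median log2 fold change 0.98). They included TFPI2 and SGCE, like PEG10 imprinted in some tissues; GNG11, a G protein gamma subunit, at 2.26, 3.45 and 2.20 against 7.79, 8.18 and 7.20 CPM (log2 fold change 1.57, SE 0.19, adjusted p = 0.000545); and CALCR, the calcitonin receptor, at 1.61, 1.87 and 0.197 against 6.81, 3.91 and 0.818 CPM (1.64; adjusted p = 0.113 without pair 1). SGCE, at 36.3, 32.6 and 40.2 against 54.3, 52.7 and 51.3 CPM (0.54, adjusted p = 0.00875), lost its call without pair 1 (0.124) or pair 2 (0.0756), and it overlaps the start of PEG10 on the other strand. AC002076.1, an RNA beside TFPI2 at about 1 CPM, was called at 0.0451 and lost its call without each pair (0.258, 0.105 and 0.0846), with limma-voom (0.0525) and with all 18 libraries (0.133). BET1, CASD1 and GNGT1, with log2 fold changes of 0.21, 0.30 and 0.54, did not pass. The window was chosen after its values were seen, so this is a description. Elsewhere on chromosome 7 HGF, SEMA3E and CD36 rose, as given above, and so did NPTX2, from 3.17, 5.404 and 6.53 to 6.19, 15.6 and 11.6 CPM (1.12).

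**Figure D4:**
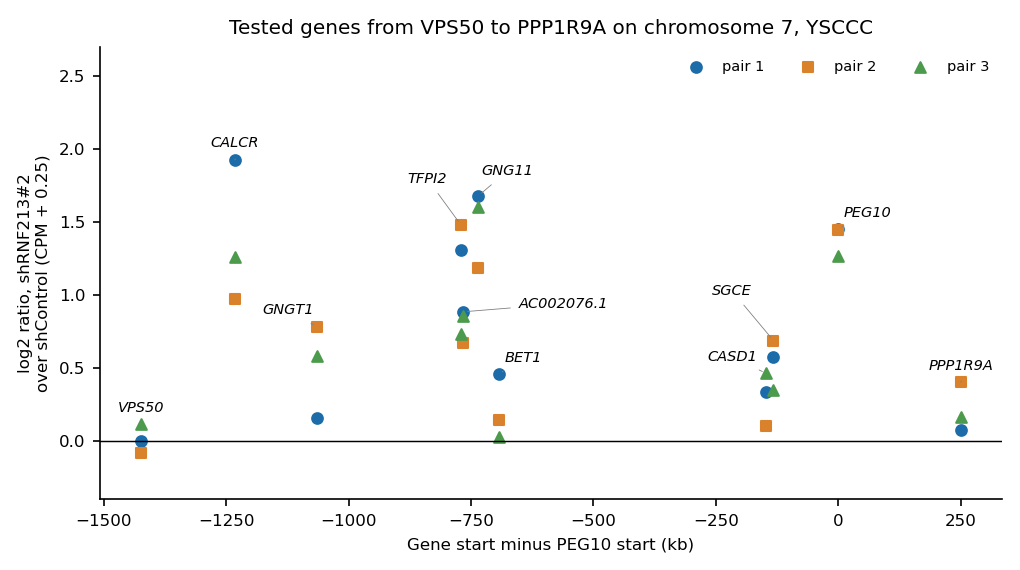
Log2 ratios of shRNF213#2 over shControl in each pair for the tested genes from VPS50 to PPP1R9A on chromosome 7, placed by the distance of their annotated start from that of PEG10 in kb. The 9 genes between VPS50 and PPP1R9A lie above 0 in all 3 pairs, with PEG10, TFPI2, GNG11 and CALCR highest.

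By chromosome, the share of called genes ran from 5.1% (chromosome 19) to 12.5% (chromosome 6), leaving out the 13 mitochondrial genes. On chromosome 6, 73 genes rose and 41 fell of 910 tested, and on chromosome 22, 4 rose and 22 fell of 412. Among 257 bins of 10 Mb with at least 20 genes at 1 CPM or more, the highest medians were 0.29 on chromosome 6 from 110 to 120 Mb (10 of 41 genes higher, 1 lower) and 0.29 on chromosome 7 from 80 to 90 Mb (4 of 20 higher), and the lowest was -0.24 on chromosome 7 from 150 to 160 Mb (6 of 47 lower).

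The hairpin effect in YSCCC was set against that in HuCCT1 and KKU-100 by a test of the difference in a model of all 18 libraries with pairs. Each line has its own control libraries. The effect differed from HuCCT1 for 9 of 19143 genes (0.047%) and from KKU-100 for 503 (2.63%). Line and medium differ together for KKU-100, which grew in another medium. Of the 1395 genes called in YSCCC that could be tested there, 9 differed from HuCCT1 and 264 from KKU-100, and the other differences did not pass, which does not show that the effects were equal. The YSCCC libraries enter both the calls and the differences. Without the replicate block edgeR called 0 differences from HuCCT1 (344 at an unadjusted p below 0.05) and 0 from KKU-100 (1108); without pairs 1, 2 and 3 the counts were 0, 0 and 8 against HuCCT1 (1283, 1341 and 1347 at an unadjusted p below 0.05) and 35, 320 and 118 against KKU-100. At a floor of 5 CPM they were 7 and 513.

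**Figure D5:**
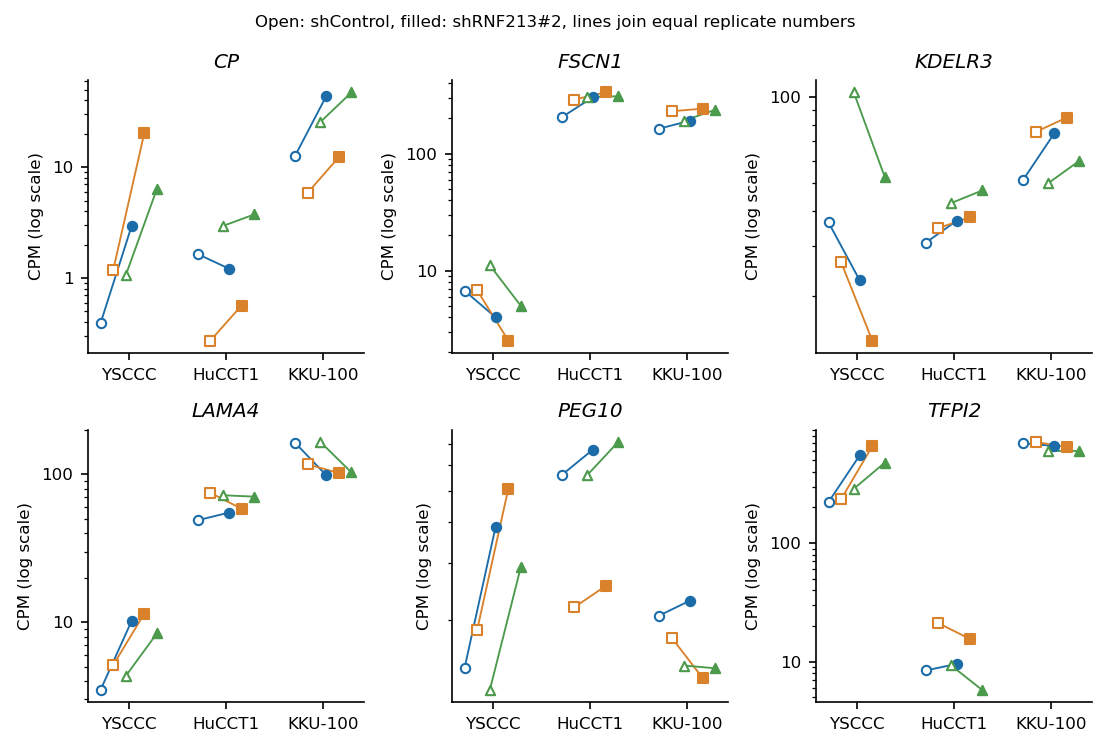
CPM on a log axis in all 18 libraries for the 6 genes whose hairpin effect in YSCCC differed from both other lines. Open symbols are shControl, filled symbols shRNF213#2, and lines join libraries of equal replicate number; within YSCCC every line rises for CP, LAMA4, PEG10 and TFPI2 and falls for FSCN1 and KDELR3.

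For 6 genes the YSCCC effect differed from both lines (plot of these genes in all libraries). CP rose in YSCCC by 3.16 ± 0.46 (SE, adjusted p = 0.0263) log2 units more than in HuCCT1 and by 2.07 ± 0.39 (SE, adjusted p = 0.0148) more than in KKU-100; it went from 1.62 ± 1.341 to 1.84 ± 1.68 CPM in HuCCT1 and from 14.7 ± 9.98 to 34.4 ± 19.2 CPM in KKU-100 (SD, n = 3 each). FSCN1, which encodes the actin bundler fascin of cell protrusions, was at 6.74, 6.79 and 11.1 CPM in YSCCC controls and fell to 3.98, 2.52 and 4.98 CPM, whereas it went from 266 ± 53.8 to 315 ± 15.8 CPM in HuCCT1 and from 195 ± 33.5 to 223 ± 28.2 CPM in KKU-100 (SD, n = 3 each). Its differences were -1.37 ± 0.19 (SE, adjusted p = 0.0263) and -1.31 ± 0.19 (SE, adjusted p = 0.005) against HuCCT1 and KKU-100. KDELR3 differed by -1.04 ± 0.15 (SE, adjusted p = 0.0263) and -1.19 ± 0.15 (SE, adjusted p = 0.00296), TFPI2 by 1.49 ± 0.22 (SE, adjusted p = 0.0279) and 1.25 ± 0.21 (SE, adjusted p = 0.00779). LAMA4 differed by 1.29 ± 0.21 (SE, adjusted p = 0.0453) and 1.75 ± 0.21 (SE, adjusted p = 0.00203), and PEG10 by 1.11 ± 0.15 (SE, adjusted p = 0.0263) and 1.48 ± 0.15 (SE, adjusted p = 0.000709), in the same order. PEG10 itself went from 446 ± 197 to 545 ± 252 CPM in HuCCT1 and from 176 ± 30.8 to 168 ± 53.7 CPM in KKU-100 (SD, n = 3 each).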

How the data were processed

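Polyadenylated RNA of 6 YSCCC libraries (3 shControl, 3 shRNF213#2) was analysed, with 12 libraries of 2 other lines for the test between lines. Per the labels, 750 ng of RNA entered TruSeq libraries. Per the submitters' processing notes the authors worked on GRCh38 with HTSeq 0.6.1p1, StringTie 2.1.6, DESeq2 1.34.0, STAR 2.5.1b, Picard 1.139 and FastQC 0.11.9; their roles and any strand option are not stated. The tests used the raw counts per gene that the authors deposited; the deposited TPM values entered only the table of arm means and none of the results.

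Counts were tested here with edgeR 4.0.16 under R 4.3.3 (TMM factors, filterByExpr with a minimum count of 10 and total of 15, replicate number as block, quasi-likelihood F test, two-sided), with Benjamini-Hochberg adjustment over the 16932 genes tested and a threshold of 0.05. Equal numbers were taken as pairs by the rule of the comparison. Deviations from the arm means correlated at 0.82, 0.73 and 0.91 for equal numbers, above a minimum of 0.1. Replicates 1 and 2 of opposite arms also passed this minimum, at 0.52 and 0.66, so it cannot show that 1 belongs with 1 and 2 with 2. Nothing in the labels ties equal numbers to a shared day or culture. Where replicates come from the same stable pool, p-values measure only the spread between these samples. Counts for the 16932 genes were simulated in a single draw, with the spread that the fit itself had estimated. The paired fit recovered 53.2% of 62 genes changed 1.5-fold, 93.8% of 64 at 2-fold and 98.7% of 74 at 3-fold, with 17 false calls among 183. The changed genes all had at least 1 CPM and were far fewer than the 1397 called in the data, so recovery in the data can differ.

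Alternatives were DESeq2 1.42.0, limma-voom (limma 3.58.1), no block, other scalings and filters, all 18 libraries, and each pair left out; limma-voom without the block was added after seeing the data. The comparison, the 65 gene lists and the tests were chosen with earlier results of these data known. Named genes were RNF213, the 15 per direction with the largest change, the 10 with the smallest adjusted p and the 8 most abundant per direction (called, at least 5 CPM, 1 direction in 3 pairs), up to 4 called members per list and direction at 1 CPM or more, the most abundant member of lists without a call, and genes differing from both other lines; genes named outside it were chosen after their values were seen. These are the genes between VPS50 and PPP1R9A, the PSG genes, NPTX2, the ER chaperone HSPA5 and the other genes with a motif. Pair ratios add 0.25 CPM. Promoter sequence is RefSeq's, of build GRCh38.p14. It was found for 44 of 47 ER chaperone, 39 of 43 COPII, 32 of 37 NF-kappaB, 33 of 37 heat shock and 21 of 29 collagen biosynthesis genes. The deposited files list 36601 gene IDs, of which 34616 were found in GENCODE release 29. Some genes of the lists are not reported here.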

Additional observations from a re-analysis of the deposited data

Results flagged for a closer look

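The hairpin effect in YSCCC was tested against the effect in each other line, and the genes below are those with a passing difference among RNF213, the genes with the largest changes, the smallest adjusted p or a difference from both lines. Differences are YSCCC minus the other line on the log2 scale, from edgeR's quasi-likelihood test in the 18-library fit with pairs.

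Against HuCCT1 the effect was more positive for CP (3.16), AGR2 (1.71), TFPI2 (1.49), LAMA4 (1.29) and PEG10 (1.11), and more negative for FSCN1 (-1.37) and KDELR3 (-1.04). Against KKU-100 it was more positive for CP (2.07), LAMA4 (1.75), LHFPL6 (1.52), PEG10 (1.48), CCN2 (1.41), GNG11 (1.35) and TFPI2 (1.25). It was more negative against KKU-100 for FBN2 (-2.99), GFY (-2.95), INHBE (-1.995), FSCN1 (-1.31), HEG1 (-1.26), KDELR3 (-1.19) and SEC23A (-0.94). In KKU-100 itself FBN2 and GFY were near the floor. Their means went from 0.267 to 0.743 and from 0.482 to 0.731 CPM there, and neither change passed. KKU-100 grew in another medium, so line and medium cannot be told apart. Of the 291 genes named by the rule, 64 differed from KKU-100 and 9 from HuCCT1, beside 2.63% and 0.047% of all genes tested. Most named genes were chosen by their change in YSCCC, which also enters the difference, so these counts are not a separate result. Arms hold 3 libraries each, so no single library was tested for standing apart.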

How the results depend on the processing

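With the replicate block, the 1397 calls of edgeR became 1231 with DESeq2, 1417 with limma-voom, 1391 with RLE size factors, 1366 with total counts as scale and 1116 at a floor of 5 CPM. They became 782 with all 18 libraries, 2160 with every gene that had a count, 740 at a change of at least 1.5-fold and 497 at an adjusted p below 0.01. Without the replicate block the pairing was lost from the fit and the calls became 0 (edgeR), 0 (limma-voom, added after seeing the data) and 97 (DESeq2). Leaving out each pair gave 313 to 1856 calls. RNF213 kept its direction in each setting, with log2 fold changes of -1.41 to -0.997 without 1 pair; with no replicate block it passed with DESeq2 (-1.15, adjusted p = 0.00345) and did not pass with edgeR (-1.15, 0.883) or limma-voom (-1.16, 0.909). Genes differing from HuCCT1 went from 9 to 0 without the block and to 0 to 8 without 1 pair; those differing from KKU-100 went from 503 to 0 without the block and to 35 to 320 without 1 pair. Of 287 called genes named by the rule, 109, 155 and 257 kept their call without pairs 1, 2 and 3, 187 with all 18 libraries and 260 of 281 with DESeq2, and none reversed. Uncalled genes changed sign without 1 pair: CPS1 (-0.12 to 0.47), UCHL1 (-0.12 to 0.14), PSMD2 (-0.12 to 0.02), MT-ND4 (-0.0427 to 0.0479) and VPS50 (-0.0468 to 0.0542). In the simulated counts, which held far fewer changed genes than the data had calls, 53.2% of genes changed 1.5-fold were recovered, so changes of this size can be missed.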
